A study of Homo sapiens with 6 samples.

Results

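The 9 transcripts described here encode death receptors and the proteins that dock on them, out of 60564 genes in the deposited count table. They were taken as the rows whose gene symbol equals FAS, FADD, TNFRSF10A, TNFRSF10B, TNFRSF10D, TNFRSF1A, TRADD, RIPK1 or CFLAR, and each symbol matched a single row. All 9 passed the filter on low counts, which kept 18797 genes. The libraries came from HEK293, an established line derived from human embryonic kidney. The group titled NC_HA is given as wild type (3 samples), and the group titled OE_HA stably overexpresses SFXN2, a sideroflexin of the mitochondrial membrane (3 samples). The labels do not spell out NC or HA, and they name no vector control, no promoter of the construct and no statement on whether the stable line is a single clone. The series title places SFXN2 in apoptosis that follows mitochondrial dysfunction, so the comparison asks whether transcripts of the receptor-driven route to apoptosis differ when SFXN2 is raised.

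Death receptors are members of the TNF receptor superfamily that carry a death domain in their cytoplasmic tail. A trimeric ligand clusters them, and the death domain then recruits an adaptor with a death domain of its own. FAS and the TRAIL receptors bind FADD directly, and FADD brings in the initiator caspases CASP8 and CASP10. TNF receptor 1 binds TRADD and the kinase RIPK1 first, in a membrane complex that signals to NF-kB, and only a later cytoplasmic complex engages FADD. CFLAR resembles CASP8 but lacks its protease activity, and it governs whether CASP8 is activated. In many cell types cleavage of BID by CASP8 ties this route to the mitochondria.

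Total gene counts ran from 32121527 to 41217867 in wild type and from 40043248 to 59963713 with overexpression. SFXN2 stood at 36.6, 27.8 and 44.7 CPM in wild-type replicates 1, 2 and 3 and at 1523, 1909 and 1771 CPM with overexpression, so each library matched its label (CPM, the gene's share of the library's counts, scaled by the TMM method). All 11 genes listed as expressed in HEK293 passed the filter, and their summed level was 1550 to 1734 CPM in wild type and 1646 to 1765 CPM with overexpression. Overexpression replicates 2 and 3 had the most genes with a count, 28985 and 29154, against 24466 to 26127 in the other 4 libraries. Wild-type replicate 2 stood apart from its group: the chi-square per degree of freedom was 59.9 and 59.2 in its pairs with replicates 1 and 3, and 17.8 between those. Overexpression replicate 1 stood apart to a lesser degree, at 32.7 and 34.8 in its pairs against 20.02 between replicates 2 and 3. Over all tested genes, the number at an unadjusted p below 0.05 in edgeR was 895 with all libraries. It was 2295 once overexpression replicate 1 was left out, and 943 once wild-type replicate 2 was left out instead. Nothing in the labels tells whether the replicates were grown separately, and the p-values rest on the spread among these libraries alone, and that spread may be technical.

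None of the 9 members passed an adjusted p of 0.05 in edgeR's quasi-likelihood test (0 genes), beside 0.0106% of all tested genes. At an unadjusted p below 0.05 stood 2 members, RIPK1 with a higher and TRADD with a lower level in the overexpression group, beside 4.76% of all tested genes. DESeq2 gave 0 members past the adjusted threshold as well, beside 0.0353% of the genes for which it gave an adjusted p. The median log2 fold change of the 9 members was 0.026, with 6 positive and 3 negative values, and the median over all tested genes was 0.0060. For the log2 fold change, the 95% interval was inside -1 to 1 for 8 of the 9 members, beside 72.6% of all tested genes. It was inside -0.5 to 0.5 for 5 of them, beside 44.4%. In bulk samples, fewer cells that carry a transcript and less RNA per cell cannot be told apart.

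**Figure D1:**
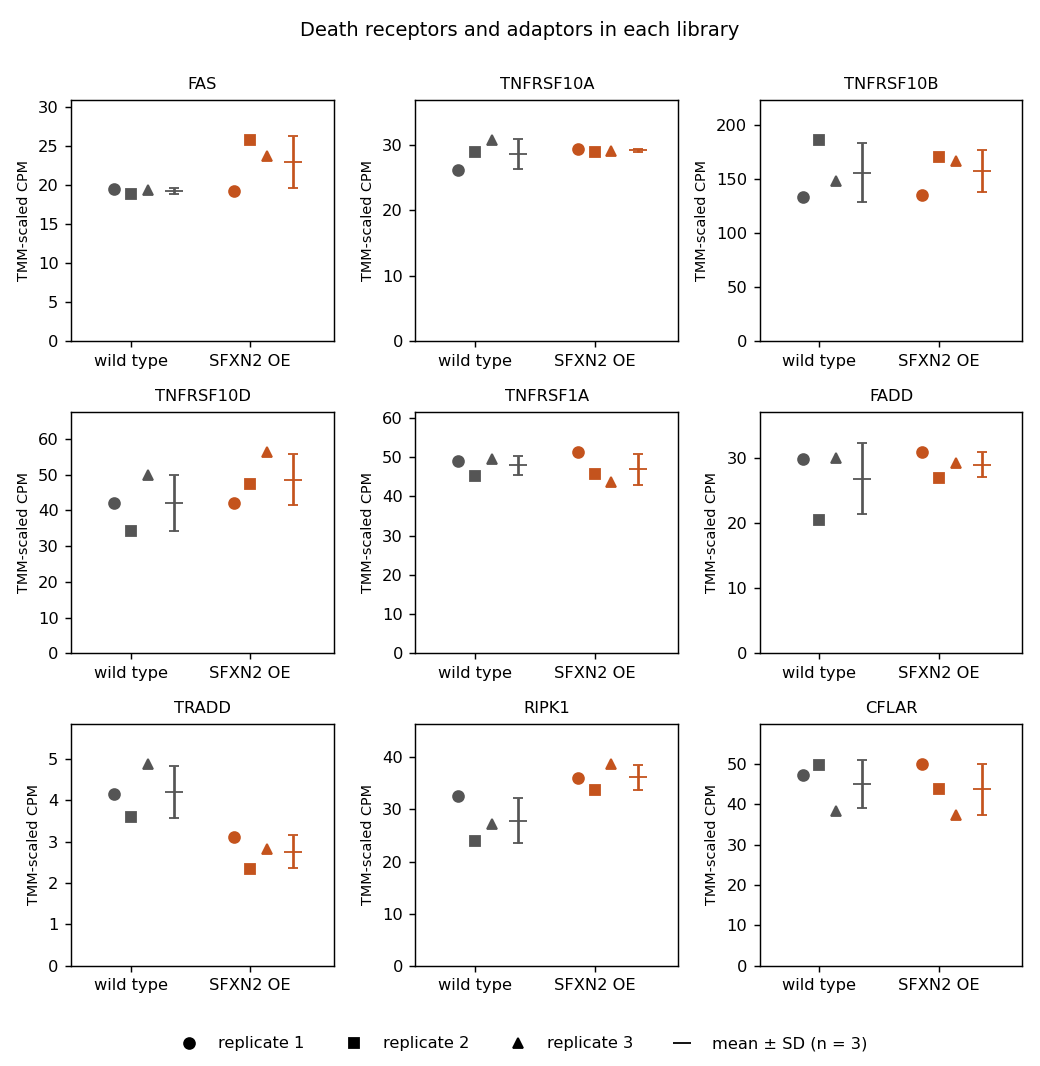
TMM-scaled CPM of each of the 9 members (vertical axis, from 0) in the 3 wild-type and 3 SFXN2-overexpressing (SFXN2 OE) libraries; symbols mark the replicate number and bars give the mean ± SD. The groups overlap in all panels except TRADD, where the overexpression libraries lie between 2.35 and 3.12 CPM below wild type at 3.59 to 4.86, and RIPK1, where they lie between 33.7 and 38.6 CPM above wild type at 23.9 to 32.6.

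Among the adaptors, RIPK1 had the smallest unadjusted p of the members. RIPK1 encodes the kinase that is ubiquitinated in the TNF receptor 1 complex as a scaffold for NF-kB signalling and whose kinase activity can drive apoptosis or necroptosis. The gene (ENSG00000137275) covers chromosome 6 from 3063991 to 3115187 on the plus strand of GRCh38. The antisense gene AL031963.3 lies over 238 of its exon bases (5.63%). AL031963.3 averaged 0.58 CPM in wild type and 0.54 CPM in the overexpression group. RIPK1 stood at 32.6, 23.9 and 27.2 CPM in wild-type replicates 1, 2 and 3 and at 36.1, 33.7 and 38.6 CPM in overexpression replicates 1, 2 and 3. The lowest overexpression library was above the highest wild-type library, so the groups did not overlap. In all, 2 of the 9 members had groups without overlap, beside 9.16% of all tested genes. A higher level without overlap was found for 4.91% of all tested genes. The difference was 1.30-fold, or 0.38 on the log2 scale (SE 0.13, 95% interval 0.083 to 0.67), with an unadjusted p of 0.0172 and an adjusted p of 0.93 in edgeR. In the order of unadjusted p it came at place 233 of the 18797 genes. Without overexpression replicate 3 the log2 fold change was 0.32, without wild-type replicate 2 it was 0.27, and the unadjusted p was 0.0708 and 0.0546. Without wild-type replicate 3 the log2 fold change was 0.36, with an unadjusted p of 0.0527 in edgeR.

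TRADD, the adaptor that links the death domain of TNF receptor 1 to RIPK1 and to the ubiquitin ligase machinery, had the largest difference of the 9 members. Its raw counts were 131, 148 and 172 in wild type and 121, 129 and 172 with overexpression, from deeper libraries. Scaled, these were 4.15, 3.59 and 4.86 CPM in wild type and 3.12, 2.35 and 2.81 CPM with overexpression. The overexpression libraries all lay below the lowest wild-type library, which held for 4.25% of all tested genes. This gave a log2 fold change of -0.61 (SE 0.24, 95% interval -1.14 to -0.073), a ratio of 0.656, with an unadjusted p of 0.0298 and an adjusted p of 0.93 in edgeR. Without wild-type replicate 3 or overexpression replicate 2 the log2 fold change was -0.49 or -0.51, and the unadjusted p was 0.11 in either case. Without overexpression replicate 3 the log2 fold change was -0.63, with an unadjusted p of 0.064 in edgeR.

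TRADD shares its 5′ end with a neighbour on the other strand. In GRCh38 TRADD (ENSG00000102871) covers chromosome 16 from 67154180 to 67160298 on the minus strand. The first 368 bases of the gene also lie in FBXL8, which runs the other way and encodes an F-box protein, and 126 exon bases (4.91% of the exons of TRADD) are exons of both. Because the library kit keeps no strand, reads from this stretch cannot be assigned to either gene. The level of FBXL8 was 3.41 ± 0.46 CPM in wild type and 2.40 ± 0.26 CPM in the overexpression group (SD, n = 3 each). Its log2 fold change was -0.51, with an unadjusted p of 0.0603 and an adjusted p of 0.93 in edgeR. The part of shared reads in the TRADD difference was not tested.

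FADD, the adaptor that joins FAS and the TRAIL receptors to the initiator caspases, stood at 29.9, 20.5 and 29.9 CPM in wild type and at 30.8, 26.9 and 29.1 CPM with overexpression. Wild-type replicate 2 was the low library, and the other 5 libraries lay between 26.9 and 30.8 CPM. The log2 fold change was 0.11 (SE 0.15, adjusted p = 0.958 in edgeR), and without wild-type replicate 2 it was -0.048. FADD (ENSG00000168040) covers chromosome 11 from 70203163 to 70207390 on the plus strand. The annotation places the antisense gene AP000879.1 over 1011 of the 1841 exon bases of FADD, and AP000879.1 had 0 counts in all 6 libraries. No source used here says how reads that fall in both genes were counted, so the level of FADD may be understated.

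CFLAR encodes cFLIP, which forms dimers with CASP8 on FADD. It stood at 47.2, 49.8 and 38.4 CPM in wild type and at 49.9, 43.9 and 37.4 CPM with overexpression. Replicate 3 was the lowest library in either group, and the groups overlapped over nearly their whole range. Its log2 fold change of -0.045 had an SE of 0.14 and a 95% interval from -0.35 to 0.26 (adjusted p = 0.98 in edgeR). CFLAR (ENSG00000003402; chromosome 2, 201116104 to 201176687, plus strand) has 25 annotated transcripts, 18 of them coding, and the counts sum over all of them, so the long and short forms of cFLIP are not separated here.

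Of the receptors, FAS had the smallest unadjusted p. FAS is the receptor of FAS ligand. It stood at 19.5, 18.9 and 19.5 CPM in wild type and at 19.3, 25.8 and 23.7 CPM with overexpression. Overexpression replicates 2 and 3 were above all wild-type libraries, whereas overexpression replicate 1 was within their range. The wild-type libraries differed by little (19.3 ± 0.33 CPM, SD, n = 3), and the overexpression libraries by more (22.9 ± 3.32 CPM, SD, n = 3). On the log2 scale the difference was 0.25 (SE 0.13, 95% interval -0.047 to 0.55), with an unadjusted p of 0.09 and an adjusted p of 0.93 in edgeR. It was 0.36 without overexpression replicate 1, with an adjusted p of 0.329, and 0.15 without overexpression replicate 2.

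The pair of libraries with the higher FAS level were also the deepest and those with most genes counted. Markers of blood and immune cells, cells that use FAS in their own turnover, were summed beside it. The 8 listed markers summed to 1.74, 1.43 and 2.09 CPM in wild type and to 1.36, 4.75 and 3.14 CPM with overexpression. Most of the higher sums in overexpression replicates 2 and 3 came from CD68, a macrophage and lysosomal protein gene, at 0.46, 3.62 and 2.05 CPM in overexpression replicates 1, 2 and 3 and 0.76 to 1.13 CPM in wild type. CD14, the only other of the 8 past the filter on low counts, did not share this pattern, at 0.75, 0.71 and 0.54 CPM with overexpression and 0.34 to 0.89 CPM in wild type. HBB had no count in any library, and PTPRC, the pan-leukocyte CD45, averaged 0.035 and 0.087 CPM in wild type and overexpression. The 6 listed neuronal markers summed to 15.2, 23.4 and 15.8 CPM in wild type and to 18.0, 28.8 and 26.9 CPM with overexpression. Of these 6, 4 were past the filter. The fibroblast markers summed to 23.4, 19.6 and 13.9 CPM with overexpression and to 17.0 to 23.1 CPM in wild type. For the epithelial markers the sums were 140, 146 and 145 CPM, against 138 to 155 CPM in wild type. Endothelial markers summed to 1.88, 3.20 and 2.24 CPM, against 1.48 to 2.41 CPM in wild type. The part of depth and of these transcripts in the FAS values was not tested. FAS (ENSG00000026103; chromosome 10, 88990582 to 89015785, plus strand) shares 380 of its 4253 exon bases with ACTA2, the smooth muscle actin gene on the other strand. The level of ACTA2 was 21.7 ± 10.6 CPM in wild type and 22.1 ± 7.16 CPM in the overexpression group (SD, n = 3 each).

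The TRAIL receptors differed less, and they gave no common direction by library. TNFRSF10A (DR4), TNFRSF10B (DR5) and TNFRSF10D (DcR2) lie on the minus strand within 204994 bases of chromosome 8, from 23190452 to 23225126, from 23020133 to 23069179 and from 23135588 to 23164030, in that order (ENSG00000104689, ENSG00000120889 and ENSG00000173530). DR4 and DR5 transmit a death signal, and DcR2 is a decoy whose death domain is truncated. TNFRSF10A was the steadiest member, at 26.2, 28.98 and 30.8 CPM in wild type and at 29.5, 28.97 and 29.1 CPM with overexpression. Its coefficient of variation over the 6 libraries was 5.13%, lower than that of all but 4.28% of the tested genes, and its log2 fold change was 0.026 (SE 0.11).

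TNFRSF10B was the most strongly counted member, with 4194 to 10150 raw counts per library. It stood at 133, 186 and 148 CPM in wild type and at 135, 169.7 and 166 CPM with overexpression. Replicate 1 was the lowest library in either group, and wild-type replicate 2 was the highest of all. This gave a log2 fold change of 0.012 (SE 0.14, 95% interval -0.31 to 0.33), and leaving out each library in turn moved it from -0.098 to 0.16.

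TNFRSF10D stood at 42.1, 34.3 and 50.01 CPM in wild type and at 42.2, 47.3 and 56.3 CPM with overexpression. Overexpression replicate 3 was the highest library and wild-type replicate 2 the lowest, and the groups overlapped. Its log2 fold change was 0.21 (SE 0.15, adjusted p = 0.93 in edgeR). Without wild-type replicate 2 it was 0.076 and without overexpression replicate 3 it was 0.079.

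TNFRSF1A, which encodes TNF receptor 1, stood at 48.9, 45.2 and 49.6 CPM in wild type and at 51.3, 45.8 and 43.6 CPM with overexpression. The gene (ENSG00000067182) covers chromosome 12 from 6328757 to 6342114 on the minus strand. The overexpression range enclosed the wild-type range. In edgeR its log2 fold change was -0.030, with an SE of 0.10, a 95% interval of -0.26 to 0.20 and an adjusted p of 0.984.

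**Figure D2:**
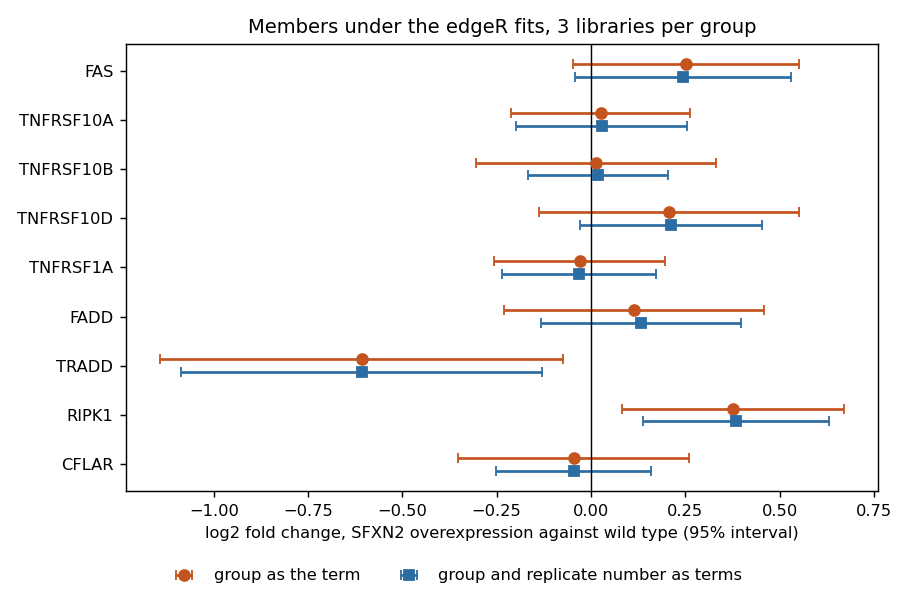
Log2 fold change of each member in SFXN2 overexpression against wild type (horizontal axis) with its 95% interval, from the edgeR fit with group as the term (circles) and from the fit that also holds the replicate number (squares). The intervals of TRADD (-1.14 to -0.073) and RIPK1 (0.083 to 0.67) leave out 0 before adjustment over all genes, and the other 7 include it.

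Libraries that carry the same number deviated together from their group means, and adding the replicate number to the model as a block gave narrower intervals for all 9 members without a call. The block left 0.00532% of all tested genes past the adjusted threshold and 0 members. In it TRADD had a log2 fold change of -0.61 (SE 0.21, unadjusted p 0.0192) and RIPK1 of 0.39 (SE 0.11, unadjusted p 0.00709), each with an adjusted p of 0.599 in edgeR. At an unadjusted p below 0.05 stood 2 of 9 members, beside 8.32% of all tested genes in that fit. In all 3 numbered pairs the difference had the same sign for 3 of 9 members, beside 30.1% of all tested genes. The within-pair log2 differences were -0.41, -0.61 and -0.78 for TRADD and 0.15, 0.50 and 0.51 for RIPK1 in pairs 1, 2 and 3. For TNFRSF10D they were 0.0037, 0.46 and 0.17.

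Ratios between partners do not depend on how libraries are scaled, and 5 of them were compared as log2 ratios of counts per kb of exon. With 3 libraries against 3, the two-sided exact permutation test cannot give a p below 0.1. The ratio of TRADD to TNFRSF1A, adaptor to receptor, was -2.92, -3.01 and -2.71 in wild type and -3.40, -3.65 and -3.31 with overexpression. All 3 overexpression values lay below all wild-type values, a difference of -0.57 (exact p = 0.1, adjusted over the 5 ratios p = 0.25). The ratio of RIPK1 to TRADD was 2.25, 2.01 and 1.76 in wild type and 2.81, 3.12 and 3.06 with overexpression. This was a difference of 0.99, with no overlap between the groups (exact p = 0.1, adjusted p = 0.25). These ratios were built from the same TRADD and RIPK1 counts as the results above and are not separate support for them.

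The remaining 3 ratios overlapped between the groups. The log2 ratio of FADD to FAS differed by -0.11 (exact p = 0.8), that of CFLAR to FADD, the caspase regulator against its docking site, by -0.18 (exact p = 0.9), and that of the decoy TNFRSF10D to TNFRSF10B by 0.19 (exact p = 0.8). In each of the 3, wild-type replicate 2 was the farthest of the wild-type libraries from the group mean. Its CFLAR to FADD ratio was -2.33, against -2.95 and -3.25 in replicates 1 and 3. Its TNFRSF10D to TNFRSF10B ratio was -1.89, against -1.11 and -1.02.

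**Figure D3:**
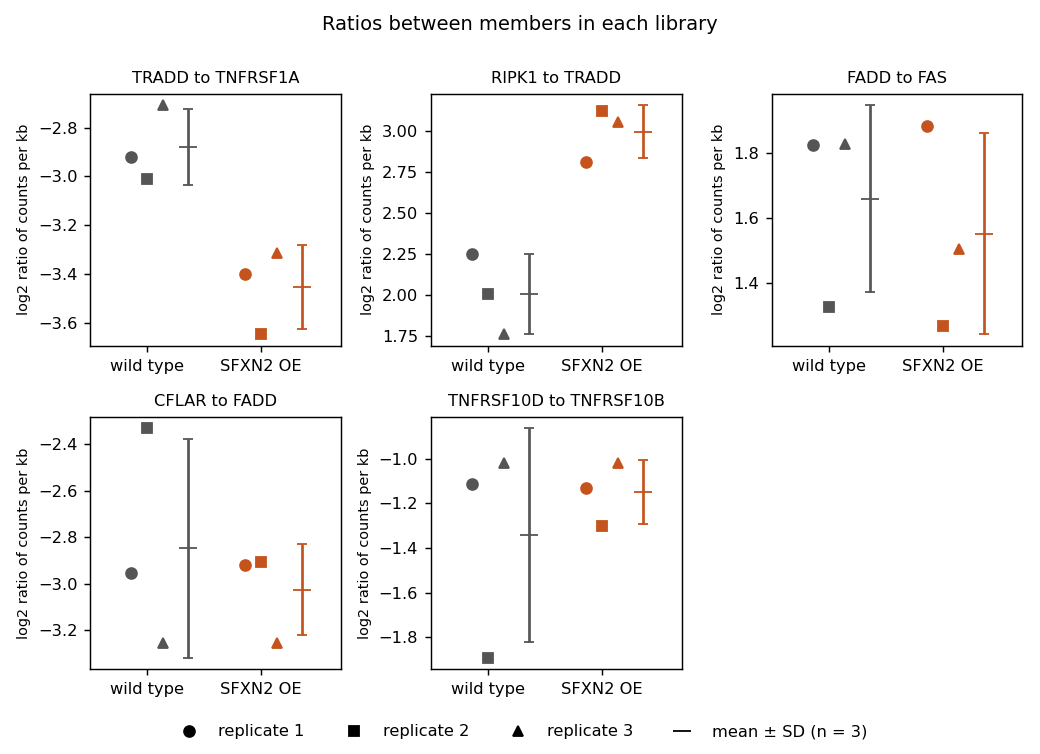
Log2 ratio of counts per kb of exon between partner genes (vertical axis, each panel with its own range that need not include 0) in each library, with symbols for the replicate number and bars for the mean ± SD of 3 libraries. TRADD to TNFRSF1A is lower and RIPK1 to TRADD higher in all 3 overexpression libraries, and the other 3 ratios overlap.

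Levels between members were compared per length. Per kb of annotated exon, TNFRSF10B stood highest in wild type at 30.1 ± 5.29 CPM per kb (SD, n = 3), followed by FADD at 14.5 ± 2.95, TNFRSF1A at 12.0 ± 0.60, TNFRSF10D at 11.9 ± 2.21, TNFRSF10A at 9.71 ± 0.78, RIPK1 at 6.59 ± 1.04, FAS at 4.53 ± 0.079, CFLAR at 2.00 ± 0.27 and TRADD at 1.64 ± 0.25 (SD, n = 3 each). By the mean over all 6 libraries, TNFRSF10B was above 93.1% and TRADD above 33.8% of the 18578 tested genes with an annotated length. The wild-type ranges of FADD, TNFRSF1A, TNFRSF10D and TNFRSF10A overlapped from neighbour to neighbour in this order, as did those of CFLAR and TRADD. The order of these neighbours is thus not resolved in wild type. Members farther apart in the run could be separate: the lowest wild-type values of FADD (11.1) and TNFRSF1A (11.3) were above the highest of TNFRSF10A (10.4). In the overexpression group FADD and TNFRSF1A, TNFRSF10D and TNFRSF10A, and CFLAR and TRADD did not overlap. With overexpression the order of neighbours was the same except that TNFRSF10D, at 13.7 ± 2.01 CPM per kb (SD, n = 3), stood above TNFRSF1A, at 11.7 ± 0.98 (SD, n = 3), with overlapping ranges.

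The order also depended on the length used, an alternative chosen after seeing the data. The exon union of CFLAR is 22529 bases, and its coding transcripts have a median length of 1646. Against that median CFLAR stood at 27.4 ± 3.65 CPM per kb in wild type, TNFRSF1A at 31.4 ± 1.56, FAS at 13.9 ± 0.24, TNFRSF10A at 15.5 ± 1.24 and TNFRSF10B at 53.0 ± 9.29 (SD, n = 3 each). The full counts were also divided by only those exon bases that no other gene covers. This put FADD at 32.2 ± 6.54 CPM per kb, slightly above TNFRSF10B at 30.5 ± 5.36 (SD, n = 3 each). Any reads counted in the covered bases were not taken out, so the value for FADD is too high if such reads were counted. By its wild-type mean TRADD was the lowest member under each of the 3 lengths, although per kb of annotated exon its wild-type range overlapped that of CFLAR.

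Reads from sequence that genes share can be split between them, so the transcripts were compared in words of 50 bases on both strands. Words are shared also where annotated genes overlap on the chromosome, so the shares do not count separate copies. AP000879.1, IMPDH1P10, CFLAR-AS1, TNFRSF10A-AS1, AC100861.1 and ACTA2, named below, each overlap exons of their member in the annotation. The share of words also present in another gene was 51.1% for FADD (AP000879.1), 14.1% for CFLAR (mostly the pseudogene IMPDH1P10 and CFLAR-AS1, on its other strand), 12.4% for TNFRSF10A (mostly TNFRSF10A-AS1 and AC100861.1, on its other strand) and 7.09% for FAS (ACTA2). It was between 0.765% and 4.54% for the other 5 members. No word of 100 bases of TNFRSF10B, TNFRSF10D or TNFRSF1A occurred in another gene.

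By a rule of likeness, the nearest other gene was taken for each member as that with the smallest root mean square difference of mean-centred log2 CPM over the 6 libraries. It was UHRF2 for FAS (0.034), NUPL2 for TNFRSF10A (0.034), SEPT7P2 for TNFRSF10B (0.027), PDCD2L for TNFRSF10D (0.041), TBL1XR1 for TNFRSF1A (0.0088), C5orf51 for FADD (0.027), THRB for CFLAR (0.030), AL445524.1 for RIPK1 (0.051) and HOXA11-AS for TRADD (0.102). With 18797 genes and 6 libraries, close matches arise for many genes, and the values are descriptions only. Among the members themselves the closest pair was TNFRSF10A and TNFRSF1A (0.106).

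The wider pathway was read from 8 lists with 57 genes, 49 of which passed the filter on low counts. Of these, 0 passed the adjusted threshold in edgeR or in DESeq2, and 3 had an unadjusted p below 0.05 in edgeR (6.12% of the listed genes tested, beside 4.76% of all). Their median log2 fold change was 0.016, with 29 positive and 20 negative values.

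Ligands were scarce. FASLG had no count in any library, as had RIPK3 and ZBP1 of the necroptosis list. TNFSF10, which encodes TRAIL, averaged 0.075 CPM in wild type and 0.060 CPM with overexpression and was not tested. TNF stood at 0, 0.27 and 0.057 CPM in wild type and at 0.13, 0.58 and 0.43 CPM with overexpression, with an unadjusted p of 0.0818 in edgeR. The 3 ligands tested had a median log2 fold change of 0.72, with 2 positive and 1 negative. Without the low-count filter 4 ligands were tested, 2 positive and 2 negative, and the median was 0.15. Of the 8 other receptors and decoys 4 were tested (median 0.23), and only TNFRSF21 (DR6) was well counted, at 57.2 ± 10.9 and 59.8 ± 4.59 CPM (SD, n = 3 each). Without that filter all 8 were tested, 4 positive and 4 negative, and the median was -0.088. Both medians thus depended on the filter.

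Downstream of the receptors, the 6 genes of initiator caspases and other death effector domain proteins had a median log2 fold change of 0.11. PEA15, a death effector domain protein that binds FADD and CASP8, stood at 109, 78.7 and 87.9 CPM in wild type and at 97.5, 124 and 133 CPM with overexpression. Its log2 fold change was 0.36, with an unadjusted p of 0.0388 in edgeR, and overexpression replicate 1 lay inside the wild-type range. CASP8 itself was at 25.8 ± 2.88 CPM in wild type and 30.02 ± 4.74 CPM in the overexpression group (SD, n = 3 each).

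The 14 genes of the TNF receptor 1 complex had a median of -0.046. RBCK1, which encodes HOIL-1 of the linear ubiquitin ligase, stood at 43.7, 70.9 and 56.1 CPM in wild type and at 44.5, 40.2 and 40.9 CPM with overexpression (log2 fold change -0.45, unadjusted p 0.0185 in edgeR). The next lowest p among genes with a negative value belonged to TAB1, an activator of the kinase TAK1 (-0.20), and IKBKB, an IkB kinase (-0.15). The 6 genes of ubiquitin editing had a median of 0.14. TNFAIP3, which encodes A20 and edits ubiquitin chains on RIPK1, had a log2 fold change of 1.03 and an unadjusted p of 0.0465 in edgeR, with high values in overexpression replicates 2 and 3 only (26.7 and 29.4 CPM, against 8.60 to 12.4 CPM in the other 4 libraries).

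The 9 genes whose proteins bind death receptors or death domains had a median of 0.016, the 6 of the executioner arm 0.039, and the necroptosis effector MLKL, the only tested gene of its list, a log2 fold change of 0.22. BID, whose cleaved form acts on mitochondria, was at 27.9 ± 5.02 CPM in wild type and 27.9 ± 2.23 CPM in the overexpression group (SD, n = 3 each).

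**Figure D4:**
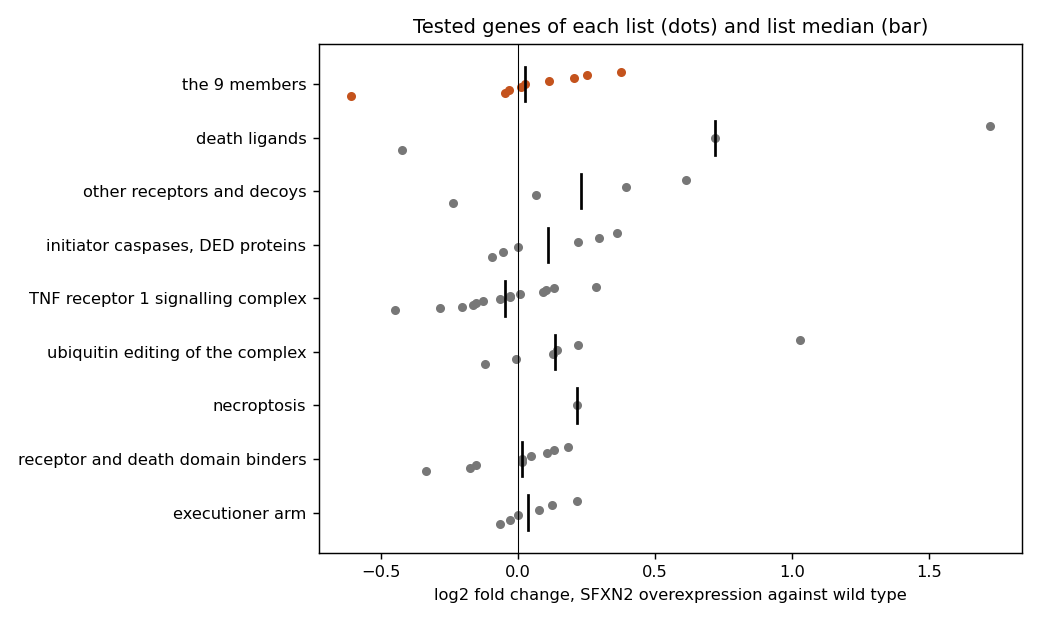
Log2 fold change in SFXN2 overexpression against wild type (horizontal axis) of the 9 members and of every tested gene of the 8 pathway lists (1 row per list, dots for genes, bar for the list median; DED, death effector domain). Medians lie between -0.046 and 0.23 except for the 3 weakly counted ligands at 0.72, and the dots farthest from 0 on the right are TNF (1.72) and TNFAIP3 (1.03).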

How the data were processed

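Ribosomal RNA was removed and libraries were built with a TruSeq kit that keeps no strand, per the labels' protocols. The submitters' processing notes name Trim Galore 0.4.4 and the build hg38. No source used here names the aligner, the counter or the annotation release. The authors deposited raw counts for 60564 genes, per the file headers. The log2 table that the authors deposited holds each count over its library's constant, with 1 added before the logarithm. It served 1 alternative.

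The test of the counts was that of edgeR 4.0.16 (R 4.3.3), using filterByExpr at a minimum count of 10, TMM scaling, a robust quasi-likelihood F-test on group, and Benjamini-Hochberg adjustment over 18797 genes at 0.05. The SE is the log2 fold change over the square root of F, and log2 CPM used a prior count of 2. Alternatives used DESeq2 1.42.0 and limma 3.58.1. Positions and lengths came from GENCODE 29 (GRCh38). In data simulated for this comparison over 18550 genes, 60% of the genes changed 2-fold and 100% of those changed 4-fold were called. Of the unchanged genes, 3 were called. The simulation gave all genes the same dispersion and held no smaller change, so it does not cover folds like those of RIPK1 and TRADD. The median SE was 0.17.

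Deviations from the group means of same-numbered samples correlated at 0.24, 0.33 and 0.19 over genes. Those of differing numbers correlated at -0.26 to -0.074. Deviations from a group mean cancel out within the group, so these correlations are tied to one another and do not establish a pairing. The numbers were treated as pairs in the replicate block and the within-pair comparisons only. The main fit had group as its only term and the exact tests were unpaired, since the labels state no pairing. No pair of replicate libraries was within sampling noise. Named genes were the members, SFXN2, the nearest gene of each member, and from the pathway lists any called gene and the 3 higher and 3 lower genes of smallest p. FBXL8, ACTA2, AP000879.1, AL031963.3, CASP8, BID, MLKL, FASLG, RIPK3, ZBP1, TNFSF10, TNFRSF21, PTPRC, CD14, CD68 and HBB were named after their values were seen. The members and lists were chosen with earlier results of these data known. No library was left out.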

Additional observations from a re-analysis of the deposited data

How the results depend on the processing

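No member passed the adjusted threshold under any of 14 other settings, 126 values in all, and 9 of these values changed sign. The changes of sign, all for members near 0, came from leaving out a library: leaving out each in turn moved TNFRSF10A from -0.042 to 0.079, TNFRSF10B from -0.098 to 0.16, TNFRSF1A from -0.10 to 0.013, FADD from -0.048 to 0.20 and CFLAR from -0.15 to 0.050. The ranges were -0.71 to -0.49 for TRADD, 0.27 to 0.49 for RIPK1, 0.15 to 0.36 for FAS and 0.076 to 0.35 for TNFRSF10D. Leaving out each library moved the ratio of FADD to FAS from -0.27 to 0.035 and CFLAR to FADD from -0.38 to 0.079, and TNFRSF10D to TNFRSF10B from -0.082 to 0.35. The sign-flip test within replicate pairs cannot give a p below 0.25. Over all genes, 2 passed in edgeR. The replicate block left 1, a threshold of 0.01 left 1, DESeq2 gave 12, and leaving out a library gave 1 to 3; the cause was not tested. The block changed no call of a member. The median log2 fold change of all genes moved from 0.0060 to 0.034 with library size alone. The pathway lists kept 0 calls without a low-count filter. TRADD, with 121 to 172 counts per library, had the widest interval of the members.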
